A study of Mus musculus with 18 samples.

Results

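Axon guidance ligands and receptors were followed through the differentiation of mouse ES cells into motor neurons. The set was chosen by gene symbol and holds 53 genes of the ephrin, semaphorin, Slit and netrin systems. Of these, 52 were measured here, out of 18193 genes with a probe set of their own, by 128 of the 45037 probe sets tested. Ephb2 was not analysed here, since no probe set used here carries its symbol alone. The cells were HBG3, a mouse ES cell line with a GFP reporter under the promoter of the motor neuron gene Hb9 (Mnx1), and all groups come from this 1 line. RNA of ES cells or of whole embryoid bodies was hybridized to 18 Affymetrix mouse arrays, each a separate sample of its group and, per the methods, a biological replicate. The groups were ES cells at day 0 (3 arrays), untreated embryoid bodies at day 2 (4 arrays), day 2 embryoid bodies after 8 h of all-trans retinoic acid (RA; 2 arrays), neural precursors at day 3 (3 arrays), progenitor motor neurons at day 4 (3 arrays) and postmitotic motor neurons at day 7 (3 arrays). RA was given on day 2 together with SAG, an agonist of hedgehog signaling, so the cells of days 3, 4 and 7 had received both. For the 8 h group the labels mention RA alone, which leaves the presence of SAG unsettled. Medium was exchanged on day 2 and no untreated array of the same 8 h was used here, so RA and further culture cannot be told apart.

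Growing axons are steered by cues on other cells and in the matrix, which they read with receptors on the growth cone. Ephrins are membrane-bound ligands of the Eph receptor tyrosine kinases, semaphorins signal through plexins with neuropilins as co-receptors of many secreted members, Slits act on Robo receptors, and netrin 1 attracts axons through Dcc and repels them through Unc5 receptors. In the spinal cord, the floor plate secretes netrin 1 and Slits, and motor axons choose their path in the limb in part through Epha4 and its ephrins.

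Values are log2 signals per probe set, and 55.2% to 56.9% of the probe sets of an array lay under 4, the log2 signal used here as background. Within a group, arrays correlated over all probe sets with r from 0.967 to 0.995. A gene was called when 1 or more of its probe sets differed by at least 2-fold at an adjusted p under 0.01 in limma, and it is described by its brightest probe set, the one with the highest mean over all 18 arrays. Levels of different probe sets are not compared. Array values are given in the order of the replicate numbers, which are 1 to 3 at days 0, 3 and 4, 1 to 4 at day 2, 1 and 3 after 8 h of RA and 3 to 5 at day 7. Where every array of the lower group lay under background, its mean was set to 4, so that "at least" marks a fold bounded from below. Where some arrays of that group lay under background and others did not, the fold uses the measured values of all of them. Log2 changes are given ± their standard error from limma. In bulk RNA, fewer cells of a type and less RNA per cell cannot be told apart. The motor neuron genes Isl1 (11.43 to 11.79) and Mnx1 (5.67 to 7.44) had log2 signals above background on all day 7 arrays, while Chat, the acetylcholine-synthesizing enzyme, stayed under it (2.24 to 2.88). Of the transporter genes in the same list, Slc18a3 gave 6.40, 6.85 and 7.86 and Slc5a7 gave 4.02, 2.35 and 3.24. Of the 9 motor neuron markers, 8 had a day 7 array at background or above. Summed signals on the log2 scale were 15.66 to 15.83 for 9 neuron markers (12.36 to 12.73 at day 4) and 12.40 to 12.55 for 9 motor neuron markers (10.84 to 12.03 at day 4). The neuron sum was also 12.40 to 12.69 in ES cells at day 0, where Stmn2 alone gave 11.75 to 12.38, and 9.91 to 10.22 at day 3. The day 7 arrays also held markers of other cells. Their summed signals were 13.86 to 14.35 for 7 glial markers (10.51 to 10.68 at day 4), 11.65 to 12 for 9 interneuron markers (7.63 to 9.11 at day 4) and 13.59 to 14.01 for 4 floor plate markers (10.54 to 11.27 at day 4). The floor plate sum was already 11.51 to 11.90 at day 2 and 11.82 to 12.59 at day 3. Single genes made up most of 2 of these sums at day 7, Spon1 (13.42 to 13.76) for the floor plate and Fabp7 (13.52 to 13.78) for glia. Of these lists, Gfap, Lmx1a, En1, Lhx5, Evx1 and Slc32a1 had no day 7 array at background or above. At day 0, the summed signal of 7 fibroblast markers was 9.12, 10.30 and 11.84 in replicates 1, 2 and 3. The part of these markers in the results was not tested.

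Promoter sequences of the genes that carry the main results are shown from RefSeq (mouse build GRCm38.p6), as 300 bases that run from 250 before to 50 after the annotated start, in the direction of the gene. The table held such windows for 43 of the 52 members, 53 windows in all. Epha4 (chr1:77515039-77515338, minus strand) is shown as the member called after 8 h of RA. Epha2 (chr4:141300971-141301270, plus strand) and Nrp1 (chr8:128358823-128359122, plus strand) moved in opposite directions between days 2 and 3, and Epha5 (chr5:84417333-84417632, minus strand) rose at day 7. Capitals mark the letters found by a search of both strands, which are TGACCT in Epha2 and Nrp1 (the hormone receptor core AGGTCA on the opposite strand) and TAATTA in Epha5 (a homeodomain core), while Epha4 held none of the motifs searched.
Epha4: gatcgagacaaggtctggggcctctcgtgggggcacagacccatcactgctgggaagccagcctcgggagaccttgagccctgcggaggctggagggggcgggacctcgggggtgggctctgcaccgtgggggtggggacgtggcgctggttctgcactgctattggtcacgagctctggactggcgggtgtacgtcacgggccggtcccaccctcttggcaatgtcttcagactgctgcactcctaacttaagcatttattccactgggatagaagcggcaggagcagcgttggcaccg
Epha2: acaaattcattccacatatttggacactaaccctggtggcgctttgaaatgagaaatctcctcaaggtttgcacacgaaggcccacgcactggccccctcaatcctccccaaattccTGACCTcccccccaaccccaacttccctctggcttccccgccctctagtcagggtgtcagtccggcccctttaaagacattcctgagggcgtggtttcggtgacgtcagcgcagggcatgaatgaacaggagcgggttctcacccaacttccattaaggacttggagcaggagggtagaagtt
Nrp1: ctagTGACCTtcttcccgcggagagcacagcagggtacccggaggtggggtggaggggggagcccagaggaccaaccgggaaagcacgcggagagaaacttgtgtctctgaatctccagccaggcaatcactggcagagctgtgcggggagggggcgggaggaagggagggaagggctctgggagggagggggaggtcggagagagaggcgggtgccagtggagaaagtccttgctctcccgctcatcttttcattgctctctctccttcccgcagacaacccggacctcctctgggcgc
Epha5: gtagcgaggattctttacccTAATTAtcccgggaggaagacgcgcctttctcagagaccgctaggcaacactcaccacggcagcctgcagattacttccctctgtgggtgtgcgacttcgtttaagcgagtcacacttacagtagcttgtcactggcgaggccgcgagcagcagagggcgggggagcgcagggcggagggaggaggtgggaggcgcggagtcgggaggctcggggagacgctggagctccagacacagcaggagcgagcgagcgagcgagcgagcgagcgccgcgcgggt

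The core AGGTCA stood in 6 of the 53 member windows and in 16.3% of the 32851 windows of all genes. The E-boxes CAGCTG and CATCTG stood in 3 windows each (16.3% and 17.2% of all windows) and TAATTA in 2 (5.29%). Direct repeats of the core with 2 or 5 bases between, which retinoic acid receptors are known to bind, were found in no member window and in 3 of all windows each (0.00913%). A core inside a repeat was also counted as a core. These matches describe letters in a short window and not binding.

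The counts that follow describe the members alone, since the matching shares of all genes were not counted. The highest group mean lay at day 7 for 33 of the 52 members, after 8 h of RA for 6, at day 2 for 5, at day 4 for 5, at day 3 for 2 and at day 0 for 1. Members with all arrays at background or above numbered 22 at day 0, 27 at day 2, 29 after RA, 30 at day 3, 31 at day 4 and 39 at day 7. Epha8, Sema3f and Plxnd1 had no array at background or above at any stage, and the counts of highest means include them. Efna1, counted as highest after RA, had 1 such array.

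**Figure D1:**
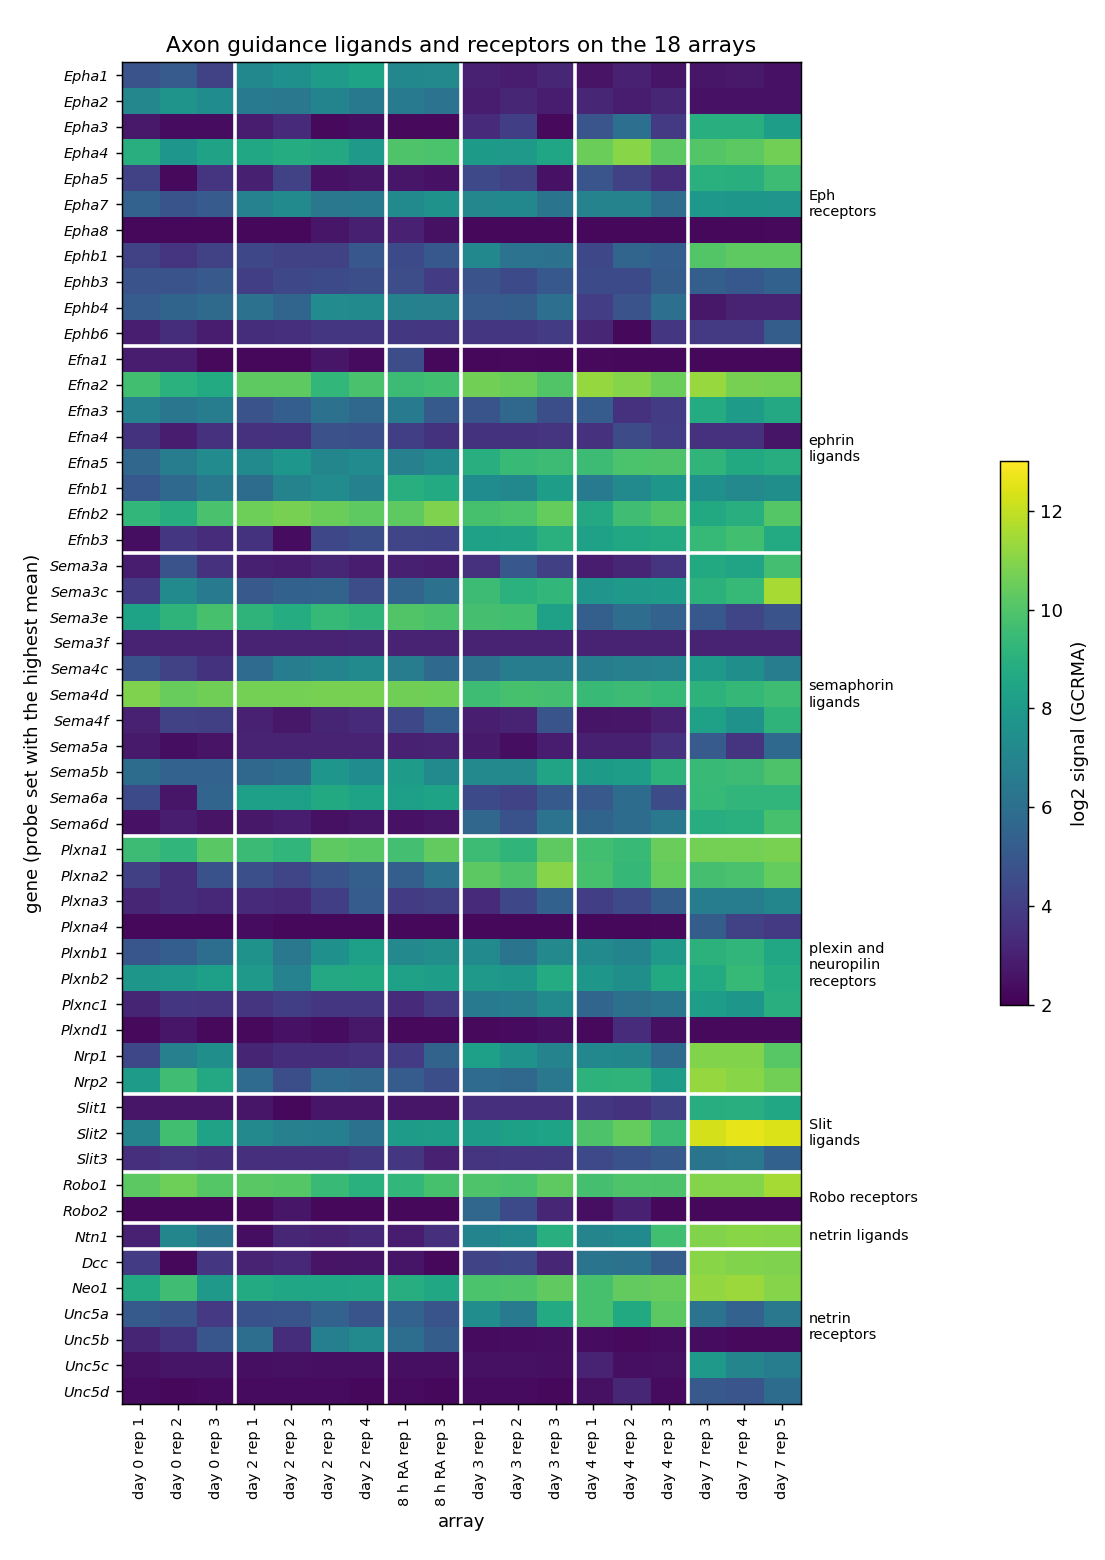
Log2 signal of the brightest probe set of each of the 52 members (rows, grouped by family) on the 18 arrays (columns, grouped by stage), with dark colors for low and yellow for high signal. The day 7 columns hold most of the bright cells, while Epha1, Epha2, Sema3e and Unc5b are bright only in the earlier columns.

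Between day 0 and day 2, 4 members rose (Epha1, Epha7, Sema4c and Sema6a) and 1 fell (Nrp2), while 4.47% of all genes were called (2.02% higher, 2.46% lower). The median log2 difference was 0.10 over the members and 0.00 over all genes. After 8 h of RA, 1 member (Epha4) was called, against 0.434% of all genes (0.363% higher, 0.0715% lower), with medians of -0.01 and 0.00. From day 2 to day 3, 12 members rose and 5 fell, against 7.71% of all genes (3.91% higher, 3.8% lower), and the medians were 0.28 and 0.00. From day 3 to day 4, 2 members rose and 1 fell (1.42% of all genes, 0.627% higher and 0.792% lower), with medians of 0.05 and 0.00. From day 4 to day 7, 21 members rose and 1 fell, while 10.9% of all genes rose and 8.17% fell (19% in either direction), and the medians were 1.21 and 0.00. Set directly against day 0, day 7 had 33 members higher and 5 lower, against 33.1% of all genes (17% higher, 16.4% lower), and medians of 2.34 and 0.00. These comparisons share groups and are not independent of each other.

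**Figure D2:**
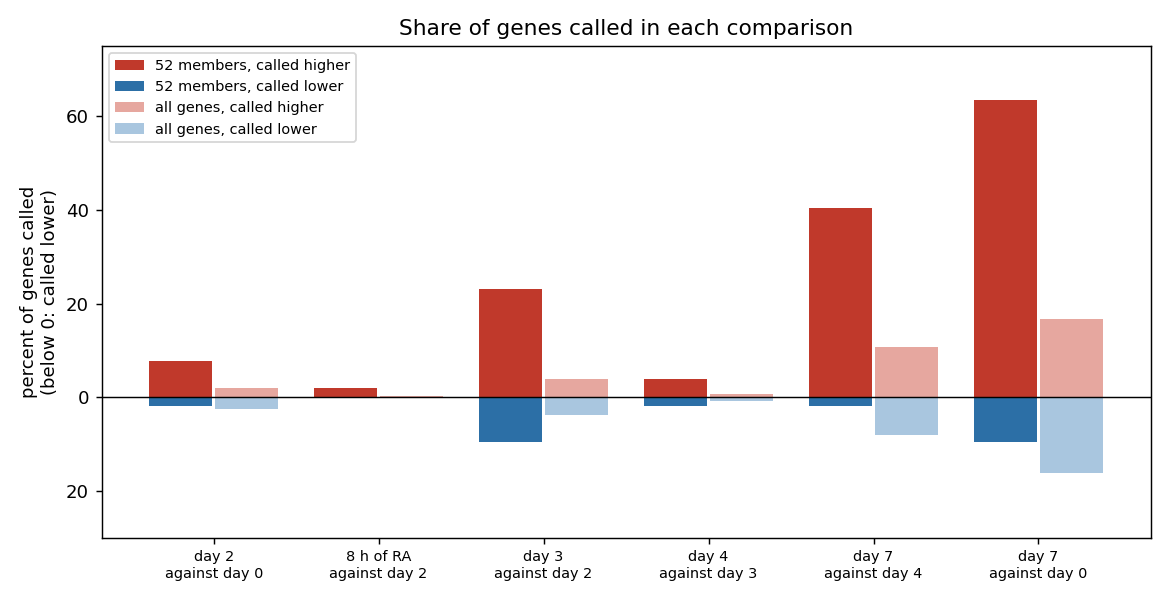
Percent of genes called higher (bars above 0) and lower (bars below 0) in each of the 6 comparisons, in dark colors for the 52 members and in pale colors for all genes. The bars of the members reach farthest from day 4 to day 7 (21 higher, 1 lower) and from day 0 to day 7 (33 higher, 5 lower).

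Fits of the arrays of the 2 compared groups alone, with fewer arrays behind the spread, called 9 members from day 2 to day 3, 10 from day 4 to day 7, 27 from day 0 to day 7 and none in the other comparisons, where 10, 5 and 10 members reached an unadjusted p under 0.05 with a 2-fold change (day 2 against day 0, RA and day 4 against day 3). With the replicate number as a block as well, such fits called no gene of the whole array by limma from day 2 to day 3 or from day 3 to day 4, where 18 and 10 members had an unadjusted p under 0.05 and a 2-fold change. The share of all genes past this unadjusted threshold was not counted, so these member counts cannot be read as a result about the set. Shares of all genes called in these refits are not given here. From day 2 to day 3, 11 members were called without day 3 replicate 3. After RA, Efna1 was called as well without RA replicate 3, and none was called without RA replicate 1.

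Among the Eph receptors, 4 of 11 rose from day 4 to day 7, where 10.9% of all genes rose. Epha1 and Epha2, receptors of ephrin-A ligands, were measured in ES cells and embryoid bodies and were near background from day 3 on. The log2 signal of Epha1 was 4.82, 5.14 and 4.15 at day 0, 7.14, 7.52, 8.08 and 8.37 at day 2, 7.13 and 7.19 after RA, and 3.00, 2.87 and 3.19 at day 3. All day 2 arrays lay above all day 0 arrays, and all day 3 arrays lay under background. Epha1 thus rose 8.42-fold by day 2 (log2 change 3.07 ± 0.27, adjusted p = 2.2e-05) and fell at least 13.7-fold by day 3 (log2 change -4.76 ± 0.27, adjusted p = 2.2e-07). Epha2 gave 7.11, 7.68 and 7.36 at day 0, 6.59, 6.39, 6.97 and 6.43 at day 2 and 2.84, 3.18 and 2.89 at day 3 on the log2 scale. It fell at least 6.05-fold from day 2 to day 3 (log2 change -3.62 ± 0.17, adjusted p = 2.4e-08), with no overlap of the arrays, and stayed under background to day 7.

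Epha4, the receptor that directs motor axons in the limb, was measured well above background at every stage. Its log2 signal was 8.95, 7.77 and 8.32 at day 0, 8.61, 8.82, 8.64 and 7.97 at day 2, 9.97 and 9.88 after RA, 8.01, 7.91 and 8.52 at day 3, 10.52, 11.06 and 10.23 at day 4, and 10.07, 10.24 and 10.66 at day 7. Both RA arrays lay above all day 2 and day 3 arrays, and the day 4 and day 7 arrays lay above all others. From day 3 to day 4 it rose 5.50-fold (log2 change 2.46 ± 0.32, adjusted p = 0.0011). After RA the difference on this probe set did not pass (log2 change 1.42 ± 0.33, adjusted p = 0.17). The RA call rests on a dim probe set of Epha4 with log2 signals of 3.58 and 3.53 after RA and 2.30, 2.24, 2.49 and 2.38 at day 2, all under background, so no fold is given (log2 change 1.21 ± 0.14, adjusted p = 0.0010). That call was lost without RA replicate 1 (adjusted p = 0.015), with the replicate block (adjusted p = 0.015), with dim probe sets left out and with the brightest probe set alone.

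Epha3, Epha5 and Ephb1 were receptors of the late stages. Ephb1, a receptor of ephrin-B ligands, gave log2 signals of 4.40, 4.12, 4.12 and 4.99 at day 2, 7.14, 6.19 and 6.10 at day 3, 4.40, 5.60 and 5.28 at day 4 and 10.04, 10.26 and 10.27 at day 7. Every day 3 array was above every day 2 and day 4 array, and the day 7 arrays were higher again. The rise was 4.18-fold from day 2 to day 3 (log2 change 2.06 ± 0.33, adjusted p = 0.0012) and 34.2-fold from day 4 to day 7 (log2 change 5.10 ± 0.35, adjusted p = 2.5e-07), and the difference between days 3 and 4 did not pass (log2 change -1.38 ± 0.35, adjusted p = 0.092).

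Epha5, a receptor of ephrin-A ligands, had log2 signals of 4.90, 4.16 and 3.39 at day 4 and 8.99, 8.94 and 9.54 at day 7, with no overlap. It rose 32.2-fold (log2 change 5.01 ± 0.61, adjusted p = 5.2e-05), and its 3 other probe sets rose as well (log2 changes 3.91 to 6.99). Epha3 went from log2 signals of 4.92, 6.03 and 3.85 at day 4 to 8.94, 8.93 and 8.16 at day 7, a 13.4-fold rise (log2 change 3.74 ± 0.52, adjusted p = 0.00016), and at day 0 its arrays had been at 2.74, 2.37 and 2.36. Day 4 arrays of both genes spread over more than 1 log2 unit, and day 7 arrays over less.

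Epha7, whose ligands are also ephrin-A proteins, gave log2 signals of 5.46, 4.85 and 5.14 at day 0 and 6.89, 7.27, 6.39 and 6.43 at day 2. The groups did not overlap, and the rise was 3.02-fold (log2 change 1.60 ± 0.30, adjusted p = 0.0070). This call was lost in each of the 7 fits that left out 1 array of these groups (adjusted p up to 0.037). From day 4 to day 7 the brightest probe set of Epha7 did not pass (log2 change 1.21, adjusted p = 0.017), while a dimmer one rose at least 2.19-fold (adjusted p = 0.00065). Ephb4, the receptor of ephrin-B2, had log2 signals of 3.98, 4.83 and 6.02 at day 4 and 2.73, 3.11 and 3.05 at day 7, which did not pass (adjusted p = 0.014), and it fell at least 2.86-fold from day 0 to day 7 (log2 change -2.55 ± 0.51, adjusted p = 0.0015). Ephb3 stayed between 3.96 and 5.40 on the log2 scale on all 18 arrays, and Ephb6 and Epha8 were called in no comparison either.

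Among the ephrin ligands, 1 of 8 rose from day 4 to day 7, where 10.9% of all genes rose. Efnb3, an ephrin-B ligand that acts as a midline barrier for axons, gave log2 signals of 3.59, 2.38, 4.38 and 4.63 at day 2, 8.28, 8.33 and 9 at day 3, 8.29, 8.59 and 8.71 at day 4 and 9.36, 9.65 and 8.71 at day 7. All arrays from day 3 on lay above all earlier ones, and the rise from day 2 to day 3 was 27.7-fold (log2 change 4.79 ± 0.48, adjusted p = 3.2e-05). Efna5, a ligand of EphA receptors, had log2 signals of 7.28, 7.79, 7.06 and 7.31 at day 2 and 8.95, 9.41 and 9.52 at day 3, a 3.81-fold rise with no overlap (log2 change 1.93 ± 0.32, adjusted p = 0.0019). Without day 3 replicate 2 or 3 the Efna5 call was lost (adjusted p up to 0.012).

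Efna3, another ligand of EphA receptors, was low at day 4 and high at day 7. Its log2 signals were 6.88, 6.32 and 6.67 at day 0, 5.18, 3.58 and 3.90 at day 4 and 8.78, 8.09 and 8.64 at day 7, so day 4 lay under both other groups. It rose 19.5-fold from day 4 to day 7 (log2 change 4.28 ± 0.49, adjusted p = 2.7e-05) and was 3.69-fold higher at day 7 than at day 0 (adjusted p = 0.0089). The latter was lost on this probe set in each of the 6 fits without 1 array (adjusted p up to 0.037), while its other probe set was 21.5-fold higher (adjusted p = 6.6e-07). Efnb1, a ligand of EphB receptors, gave log2 signals of 5.87, 6.92, 7.31 and 6.82 at day 2 and 8.90 and 8.73 after RA, without overlap, and this difference did not pass (log2 change 2.09 ± 0.47, adjusted p = 0.14). It passed at the looser adjusted p threshold of 0.05 through another of its probe sets (log2 change 1.14, adjusted p = 0.020). Efna2 was at or above 8.73 on the log2 scale on every array and was 3.40-fold higher at day 7 than at day 0 (log2 change 1.77 ± 0.31, adjusted p = 0.00062). Efna1, Efna4 and Efnb2 were called in no comparison.

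**Figure D3:**
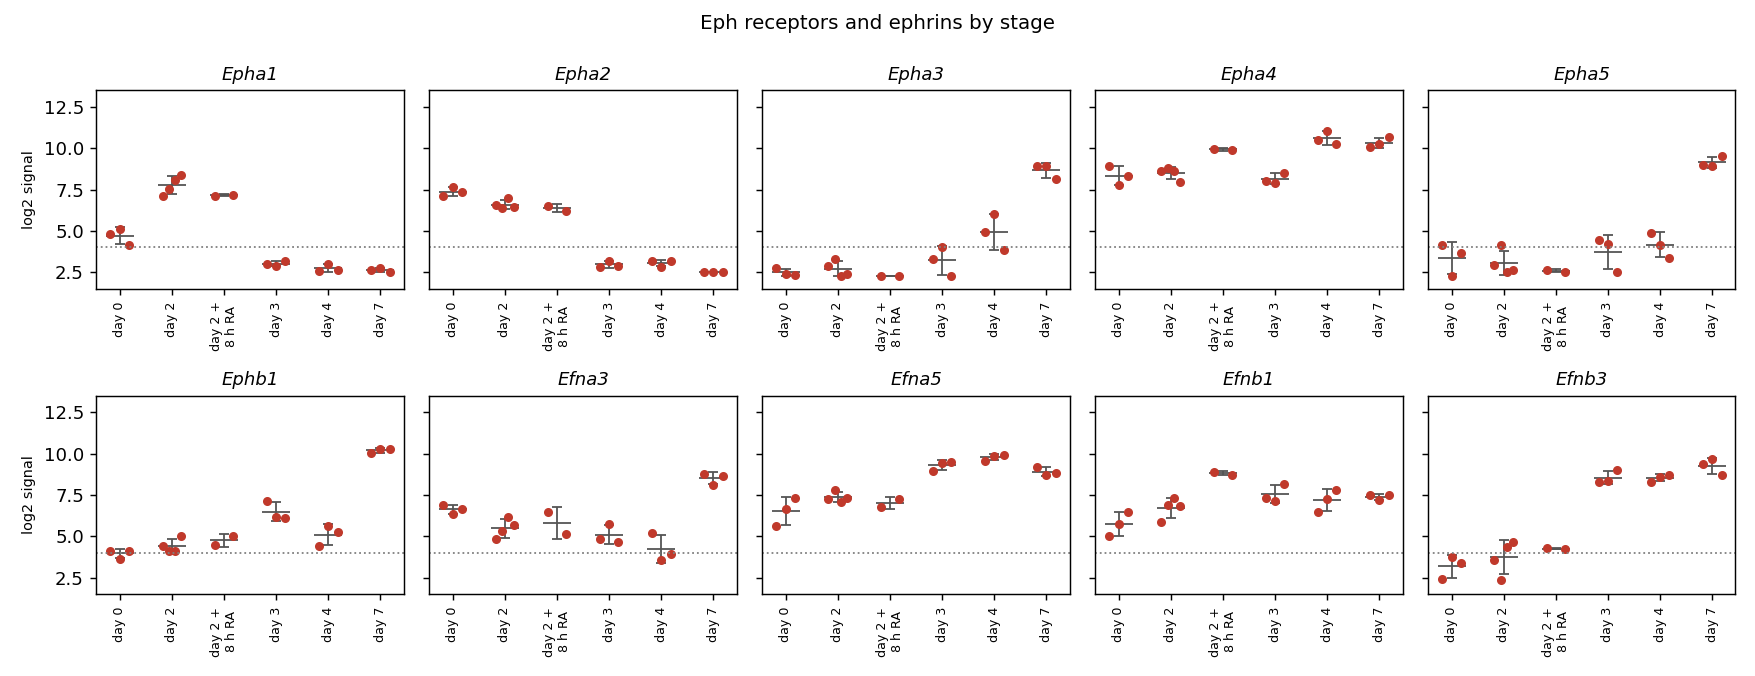
Log2 signal of 6 Eph receptors and 4 ephrins by stage, with points for arrays, horizontal bars for group means, error bars for the SD and a dotted line at the background level of 4. Epha1 and Epha2 drop under the line at day 3, while Ephb1, Epha3, Epha5 and Efna3 stand highest at day 7 and Efnb3 is high from day 3 on.

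Among the semaphorins, 5 of 11 rose from day 4 to day 7, where 10.9% of all genes rose. Sema3e, a secreted semaphorin that signals through plexin D1, was the member that fell from day 3 to day 4. Its log2 signals were 8.38, 9.15 and 9.80 at day 0, 9.17, 8.80, 9.35 and 9.16 at day 2, 10 and 9.84 after RA, 9.77, 9.67 and 8.29 at day 3, 5.35, 5.92 and 5.44 at day 4 and 5.02, 4.28 and 4.81 at day 7. The arrays of days 4 and 7 lay more than 2 log2 units under all earlier ones. Sema3e fell 12.8-fold from day 3 to day 4 (log2 change -3.67 ± 0.40, adjusted p = 0.00031), and 2 of its 3 other probe sets fell as well (log2 changes -4.34 and -3.66). Plxnd1, its receptor, stayed under background on all arrays, from 2.27 to 3.40 on the log2 scale.

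Sema6a and Sema6d are membrane-bound semaphorins that bind class A plexins, and they differed in timing. Sema6a gave log2 signals of 4.46, 2.67 and 5.58 at day 0, 8.19, 8.20, 8.69 and 8.39 at day 2, 4.45, 4.25 and 5.10 at day 3, 5.08, 5.88 and 4.53 at day 4 and 9.39, 9.22 and 9.22 at day 7. On this probe set it was high at day 2 (and after RA, at 8.22 and 8.36) and again at day 7, with no overlap with the groups between. The rises to day 2 and from day 4 to day 7 were each called on 1 of its 3 probe sets. The others gave 5.40, 5.09, 7.22 and 7.38, and 4.33, 4.70, 6.18 and 6.42, at day 2. At day 7 they gave 4.73, 5.07 and 5.80, and 4.27, 4.09 and 4.24. Sema6a rose 17.5-fold to day 2 (log2 change 4.13 ± 0.52, adjusted p = 0.00039, with a log2 change of 3.35 without day 0 replicate 2 and 4.80 without day 0 replicate 3), fell 13.6-fold to day 3 (log2 change -3.77 ± 0.52, adjusted p = 0.00045) and rose 17.3-fold from day 4 to day 7 (log2 change 4.11 ± 0.56, adjusted p = 0.00013). Sema6d lay between 2.51 and 2.85 on the log2 scale on all arrays up to RA, at 5.62, 4.77 and 6.18 at day 3 and at 8.85, 8.99 and 9.80 at day 7. It stepped up at day 3, at least 2.87-fold (log2 change 2.84 ± 0.31, adjusted p = 6.4e-05), and by a further 9.64-fold from day 4 to day 7 (log2 change 3.27 ± 0.33, adjusted p = 9.1e-06).

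Sema3a, a secreted semaphorin that repels axons through Nrp1, was highest at day 7. Its log2 signals were 2.90, 3.18 and 3.64 at day 4 and 8.67, 8.41 and 9.72 at day 7, at least 30.6-fold apart (log2 change 5.69 ± 0.47, adjusted p = 1.6e-06). Sema4f, a membrane-bound semaphorin, went from 2.64, 2.65 and 3.01 at day 4 to 8.29, 7.62 and 9.16 at day 7 on the log2 scale, at least 20.5-fold (log2 change 5.59 ± 0.51, adjusted p = 3.9e-06). In both genes day 7 replicate 5 was the highest array and no day 4 array reached background. Sema4f also gave 4.39 and 5.29 after RA, above all 4 day 2 arrays (2.70 to 3.30), a difference that did not pass (log2 change 1.81 ± 0.54, adjusted p = 0.47).

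Sema3c, a secreted semaphorin that binds neuropilins, gave log2 signals of 3.90, 7.20 and 6.51 at day 0, 5.09, 5.41, 5.49 and 4.62 at day 2, 9.54, 9.02 and 9.30 at day 3, 7.74, 7.97 and 8.05 at day 4 and 9.08, 9.39 and 11.58 at day 7. All arrays from day 3 on lay above all earlier ones. The rise from day 2 to day 3 was 17.5-fold (log2 change 4.13 ± 0.70, adjusted p = 0.0021), and it was lost without day 3 replicate 1 or 3 (adjusted p up to 0.013). At day 7, replicate 5 stood apart, and the glial genes Sox10 (log2 signals of 6.88, 9.04 and 11.05) and Pdgfra (5.31, 7.28 and 9.02) were highest on the same array. Of the other measured glial markers, Fabp7 (13.52, 13.58 and 13.78), Slc1a3 (11.35, 11.29 and 11.90) and Mbp (8.17, 8.08 and 8.51) were also highest there. Aqp4 was lowest on that array (5.72, 4.79 and 4.00), and Gfap lay at 2.24 on all day 7 arrays. The difference of Sema3c between days 4 and 7 did not pass (log2 change 2.09 ± 0.75, adjusted p = 0.073), and the part of glial cells in it was not tested. At day 0, replicate 1 was the low array of Sema3c and also of the fibroblast markers.

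Among the other semaphorins, Sema4d was measured at a log2 signal of 9.13 or more on every array and fell in a narrow step from 10.72, 10.72, 10.74 and 10.74 at day 2 to 9.58, 9.82 and 9.73 at day 3. The fall was 2.03-fold (log2 change -1.02 ± 0.11, adjusted p = 5.5e-05), and without day 3 replicate 1 it was under 2-fold (log2 change -0.96). Sema4c went from log2 signals of 4.79, 4.15 and 3.62 at day 0 to 5.86, 6.68, 6.96 and 7.28 at day 2, a 5.69-fold rise with no overlap (log2 change 2.51 ± 0.39, adjusted p = 0.0019). Sema5a was near background throughout and rose at least 1.84-fold at day 7, from 2.95, 2.97 and 3.56 to 5.16, 3.69 and 5.78 on the log2 scale (adjusted p = 0.0054). The call of Sema5a was lost without day 4 replicate 1 or 2 or day 7 replicate 3 or 5 (adjusted p up to 0.026), its log2 change was 2.31 without day 7 replicate 4, and it was also lost with values raised to background. Sema5b passed between days 0 and 7 (16.6-fold higher, adjusted p = 6.0e-05) and between no neighboring stages.

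Of the 10 plexins and neuropilins, the receptors of semaphorins, 3 rose from day 2 to day 3, where 3.91% of all genes rose. From day 4 to day 7, 4 rose, where 10.9% of all genes rose. Plxna2 gave log2 signals of 4.67, 4.30, 4.86 and 5.34 at day 2, 5.34 and 6.21 after RA, 10.22, 9.92 and 11 at day 3, 9.78, 9.34 and 10.40 at day 4 and 9.75, 9.84 and 10.41 at day 7. All arrays from day 3 on lay at 9.34 or above and all earlier ones at 6.21 or under. The step from day 2 to day 3 was 48.0-fold (log2 change 5.58 ± 0.39, adjusted p = 1.3e-06), and 2 of the 3 other probe sets of Plxna2 rose as well (log2 changes 4.89 and 1.41). The remaining probe set gave 6.52, 6.15, 2.86 and 3.11 at day 2 on the log2 scale, with replicates 1 and 2 above replicates 3 and 4, and did not pass.

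Plxnc1, the receptor of semaphorin 7A, gave log2 signals of 3.66, 4.04, 3.74 and 3.73 at day 2, 6.54, 6.62 and 7.21 at day 3, 5.57, 6.05 and 6.31 at day 4 and 8.12, 7.84 and 8.91 at day 7. It rose 7.97-fold at day 3 (log2 change 2.99 ± 0.27, adjusted p = 1.4e-05) and 4.95-fold from day 4 to day 7 (log2 change 2.31 ± 0.29, adjusted p = 7.5e-05). Its probe sets disagreed in direction at day 7, where the next brightest went from 6.31, 6.54 and 6.74 at day 4 to 5.92, 5.43 and 6.34 on the log2 scale, a difference that did not pass. Plxna4, a co-receptor of Nrp1 for Sema3a, was under background on all arrays up to day 4 and at 5.23, 4.13 and 3.87 at day 7, at least 1.33-fold higher (log2 change 2.16 ± 0.24, adjusted p = 2.0e-05), a call lost with values raised to background. Plxna3 and Plxnb1 were higher at day 7 than at day 0 (at least 6.80-fold and 11.7-fold, adjusted p = 0.00021 and 3.3e-05). Plxna1 and Plxnb2 were measured above background on all 18 arrays, at log2 signals from 9.19 to 10.78 and from 6.88 to 9.38, and were called in no comparison.

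Nrp1, the neuropilin that binds Sema3a, gave log2 signals of 4.40, 6.77 and 7.49 at day 0, 3.12, 3.45, 3.42 and 3.58 at day 2, 3.94 and 5.50 after RA, 8.21, 7.63 and 6.91 at day 3, 7.15, 7.03 and 5.85 at day 4 and 10.90, 10.91 and 10.15 at day 7. It was under background at day 2 and highest at day 7, and neither group overlapped with its neighbors. Nrp1 rose at least 12-fold from day 2 to day 3 (log2 change 4.19 ± 0.64, adjusted p = 0.00099) and 15.7-fold from day 4 to day 7 (log2 change 3.98 ± 0.69, adjusted p = 0.00092), the latter lost on this probe set with the replicate block (adjusted p = 0.019). Its difference between days 0 and 2 did not pass (log2 change -2.83 ± 0.64, adjusted p = 0.021), although it passed without day 0 replicate 1, which was the array lowest in fibroblast markers.

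Nrp2, the neuropilin of Sema3f and Sema3c, took another course. Its log2 signals were 8.06, 9.64 and 8.62 at day 0, 5.84, 4.65, 5.83 and 5.62 at day 2, 5.84, 5.71 and 6.40 at day 3, 9.12, 9.15 and 8.14 at day 4 and 11.28, 11.05 and 10.66 at day 7. The day 2 and day 3 arrays lay under all day 0, day 4 and day 7 arrays. Nrp2 fell 9.76-fold to day 2 (log2 change -3.29 ± 0.40, adjusted p = 0.00031), rose 7.06-fold from day 3 to day 4 (log2 change 2.82 ± 0.43, adjusted p = 0.0041) and 4.57-fold from day 4 to day 7 (log2 change 2.19 ± 0.43, adjusted p = 0.0025). With day 0 replicate 1 as the only day 0 array, the fall was -2.57 on the log2 scale (adjusted p = 0.0099). The rise to day 4 was lost with the replicate number as a block (adjusted p = 0.032) and without day 3 replicate 1 or 2 or day 4 replicate 1 or 2 (adjusted p up to 0.025). The rise to day 7 was lost on this probe set without day 4 replicate 3 or day 7 replicate 3 (adjusted p up to 0.013), and another probe set of Nrp2 rose 7.50-fold (adjusted p = 0.00020). Sema3f, its ligand, stayed at 3.09 to 3.14 on the log2 scale on every array.

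**Figure D4:**
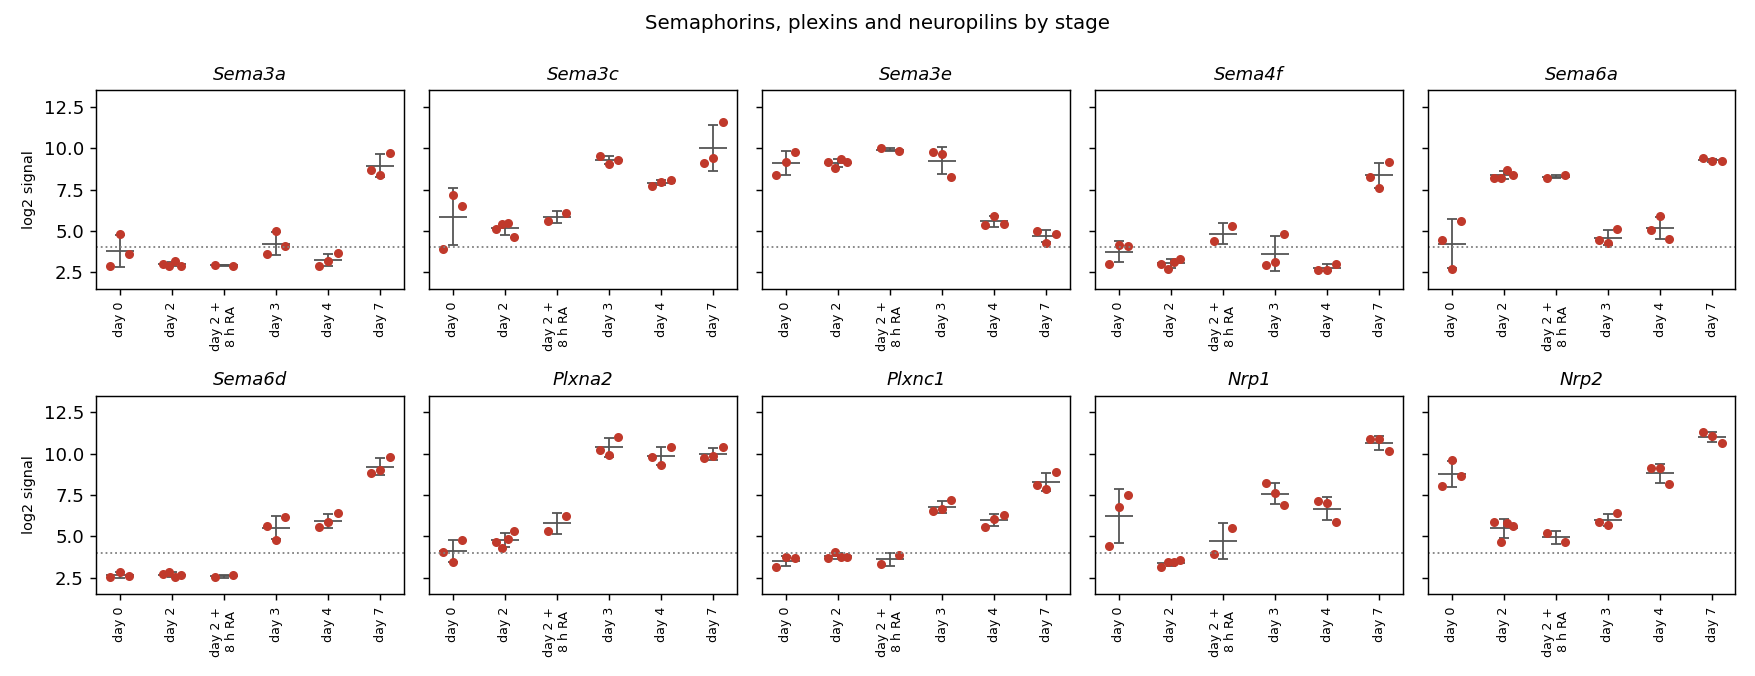
Log2 signal of 6 semaphorins, 2 plexins and 2 neuropilins by stage, with points for arrays, horizontal bars for group means, error bars for the SD and a dotted line at the background level of 4. Sema6a stands high at day 2 and at day 7, Sema3e drops at day 4, Plxna2 steps up at day 3, and Nrp1 is under the line at day 2.

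All 3 Slits, secreted ligands that repel axons at the midline, rose from day 4 to day 7, where 10.9% of all genes rose. Slit1 gave log2 signals of 3.77, 3.59 and 4.08 at day 4 and 8.86, 8.89 and 8.55 at day 7, a 30.9-fold rise (log2 change 4.95 ± 0.13, adjusted p = 2.2e-11), and at day 0 all of its arrays were at 2.67. Slit2 gave 9.92, 10.41 and 9.50 at day 4 and 12.29, 12.60 and 12.41 at day 7 on the log2 scale, a 5.63-fold rise (log2 change 2.49 ± 0.51, adjusted p = 0.0032). Neither gene had overlapping arrays at these stages.

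The Slit2 call was lost on this probe set without day 4 replicate 1 or 3 or any 1 of the day 7 arrays (adjusted p up to 0.016), and another probe set, at 2.26 to 3.10 on day 4 and 6.49 to 6.61 on day 7, rose at least 5.86-fold (adjusted p = 1.1e-09). Slit2 was also above background before the neural stages, with log2 signals of 6.91, 9.68 and 8.35 at day 0, 7.19, 6.80, 6.76 and 6.16 at day 2 and 8.07 and 8.14 after RA. Both RA arrays lay above the day 2 arrays on the brightest probe set, a difference that did not pass (log2 change 1.38, adjusted p = 0.90). The remaining probe set of Slit2 gave log2 signals of 7.73, 8.04, 3.81 and 4.43 at day 2 and 4.63 and 5.30 after RA. It was not called from day 4 (9.22, 8.70 and 7.13) to day 7 (9.72, 10.59 and 10.45). Slit3 rose 2.37-fold, from 4.44, 4.77 and 5.10 at day 4 to 6.24, 6.41 and 5.40 at day 7 on the log2 scale (log2 change 1.25 ± 0.25, adjusted p = 0.0025), and its call was lost without day 4 replicate 1 or day 7 replicate 3 or 4 (adjusted p up to 0.014).

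Robo1 and Robo2, the Slit receptors of the set, went different ways. Robo1 was measured at log2 signals of 8.98 or more on every array, with 9.77, 9.98 and 9.94 at day 4 and 10.96, 10.97 and 11.52 at day 7. The groups did not overlap, and the rise was 2.39-fold (log2 change 1.26 ± 0.29, adjusted p = 0.0070). On this probe set the call was lost in each of the 6 fits without 1 array (adjusted p up to 0.033), and another probe set of Robo1 rose 15.3-fold (adjusted p = 0.00082). Robo2 was above background on 2 arrays only, with log2 signals of 5.62, 4.46 and 3.18 at day 3 against 2.25 to 2.68 at day 2, and was again at 2.25 on all 3 day 7 arrays. It rose at least 1.34-fold at day 3 (log2 change 2.06 ± 0.40, adjusted p = 0.0053). This call was lost with the replicate block (adjusted p = 0.021), with values raised to background (log2 change 0.69) and without day 2 replicate 1, 3 or 4 or day 3 replicate 2 (adjusted p up to 0.025), and its log2 change was 1.46 without day 3 replicate 1 and 2.68 without day 3 replicate 3.

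Ntn1, which encodes netrin 1, gave log2 signals of 3.03, 7.03 and 6.23 at day 0, 2.39, 3.19, 3.07 and 3.26 at day 2, 2.86 and 3.54 after RA, 6.98, 7.25 and 8.94 at day 3, 7.01, 7.28 and 9.68 at day 4 and 10.91, 11.05 and 11.01 at day 7. All day 2 and RA arrays lay under background and all arrays from day 3 on above it. Ntn1 rose at least 13.2-fold from day 2 to day 3 (log2 change 4.74 ± 0.87, adjusted p = 0.0037), and the call was lost without day 2 replicate 1 or 3 or day 3 replicate 2 or 3 (adjusted p up to 0.024, with a log2 change of 4.14 without day 3 replicate 3). Its difference from day 4 to day 7, in which the arrays did not overlap, did not pass (log2 change 3.00 ± 0.93, adjusted p = 0.038). Shh, a floor plate gene, had log2 signals of 2.45 on all day 3 arrays, 3.78, 7.26 and 6.88 at day 4 and 11.30, 11.55 and 10.38 at day 7. Of the other measured floor plate markers, Foxa2 gave 4.19, 4.90 and 5.80 at day 3, 4.25, 5.26 and 6.13 at day 4 and 7.63, 7.60 and 5.26 at day 7. Spon1 gave 12.58, 12.30 and 11.79, then 11.19, 11.15 and 10.34, then 13.76, 13.42 and 13.42 at these stages. Lmx1a stayed at 2.24 on all arrays. The part of floor plate cells in the level of Ntn1 was not tested. The 2 day 0 arrays with Ntn1 above background were those with the higher fibroblast markers, and without day 0 replicate 1 Ntn1, like Slit2, was called lower at day 2.

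Dcc, the attractive netrin receptor, gave log2 signals of 3.92, 2.24 and 3.76 at day 0, 3.10, 3.23, 2.58 and 2.63 at day 2, 4.27, 4.40 and 3.17 at day 3, 6.22, 6.15 and 5.25 at day 4 and 11.06, 10.90 and 10.86 at day 7. Day 4 arrays lay above all earlier ones and day 7 arrays above day 4. The rise from day 4 to day 7 was 33.5-fold (log2 change 5.06 ± 0.44, adjusted p = 2.4e-06), and the level at day 7 was at least 123-fold above day 0 (log2 change 7.63 ± 0.44, adjusted p = 2.5e-08), while the difference between days 3 and 4 did not pass (log2 change 1.93 ± 0.44, adjusted p = 0.055). Of the other probe sets of Dcc, 1 rose at day 7 (at least 7.54-fold) and 1 stayed under background on all arrays. Neo1, a receptor of netrins and repulsive guidance molecules, went from 8.72, 8.47, 8.45 and 8.58 at day 2 to 9.87, 9.95 and 10.33 at day 3 on the log2 scale, 2.82-fold higher (log2 change 1.49 ± 0.31, adjusted p = 0.0077). The arrays did not overlap, but the call was lost with the replicate block (adjusted p = 0.029) and in all 7 fits without 1 array (adjusted p up to 0.043).

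The Unc5 receptors, through which netrin 1 repels axons, differed in the stage at which they were measured. Unc5b had log2 signals of 5.97, 3.44, 6.74 and 7.26 at day 2 and 5.98 and 5.24 after RA, and lay between 2.28 and 2.40 on all 9 arrays from day 3 on. It fell at least 3.62-fold from day 2 to day 3 (log2 change -3.48 ± 0.70, adjusted p = 0.0069), a call lost with values raised to background (log2 change -1.99, adjusted p = 0.060). Unc5a gave 4.76, 4.86, 5.47 and 4.86 at day 2, 7.39, 6.56 and 8.71 at day 3, 9.82, 8.67 and 10.22 at day 4 and 6.19, 5.46 and 6.42 at day 7 on the log2 scale. Its day 3 arrays lay above all day 2 arrays, and its day 7 arrays lay under all arrays of days 3 and 4.

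Unc5a rose 5.91-fold from day 2 to day 3 (log2 change 2.56 ± 0.51, adjusted p = 0.0064) and fell 11.7-fold from day 4 to day 7 (log2 change -3.55 ± 0.55, adjusted p = 0.00038), the only member called lower in that comparison. The day 3 calls of Unc5a and Unc5b were both lost with the replicate block (adjusted p = 0.020 and 0.021) and in 6 of the 7 fits without 1 array (adjusted p up to 0.031 and 0.030), and each was kept in the fit without day 3 replicate 2 for Unc5a and without day 2 replicate 2 for Unc5b (adjusted p = 0.0038 and 4.2e-05), where the log2 change of Unc5b was -4.29. Unc5c went from 3.04, 2.46 and 2.48 at day 4 to 7.97, 7.00 and 6.66 at day 7 on the log2 scale, at least 9.23-fold (log2 change 4.55 ± 0.25, adjusted p = 2.8e-08). The other probe set of Unc5c stayed under background on all arrays, with 2.96, 2.33 and 2.24 at day 7, and was not called. Unc5d gave 2.51, 3.19 and 2.31 at day 4 and 5.08, 4.91 and 5.87 at day 7, at least 2.44-fold higher (log2 change 2.62 ± 0.23, adjusted p = 2.4e-06). Neither gene had an array at background or above before day 7.

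**Figure D5:**
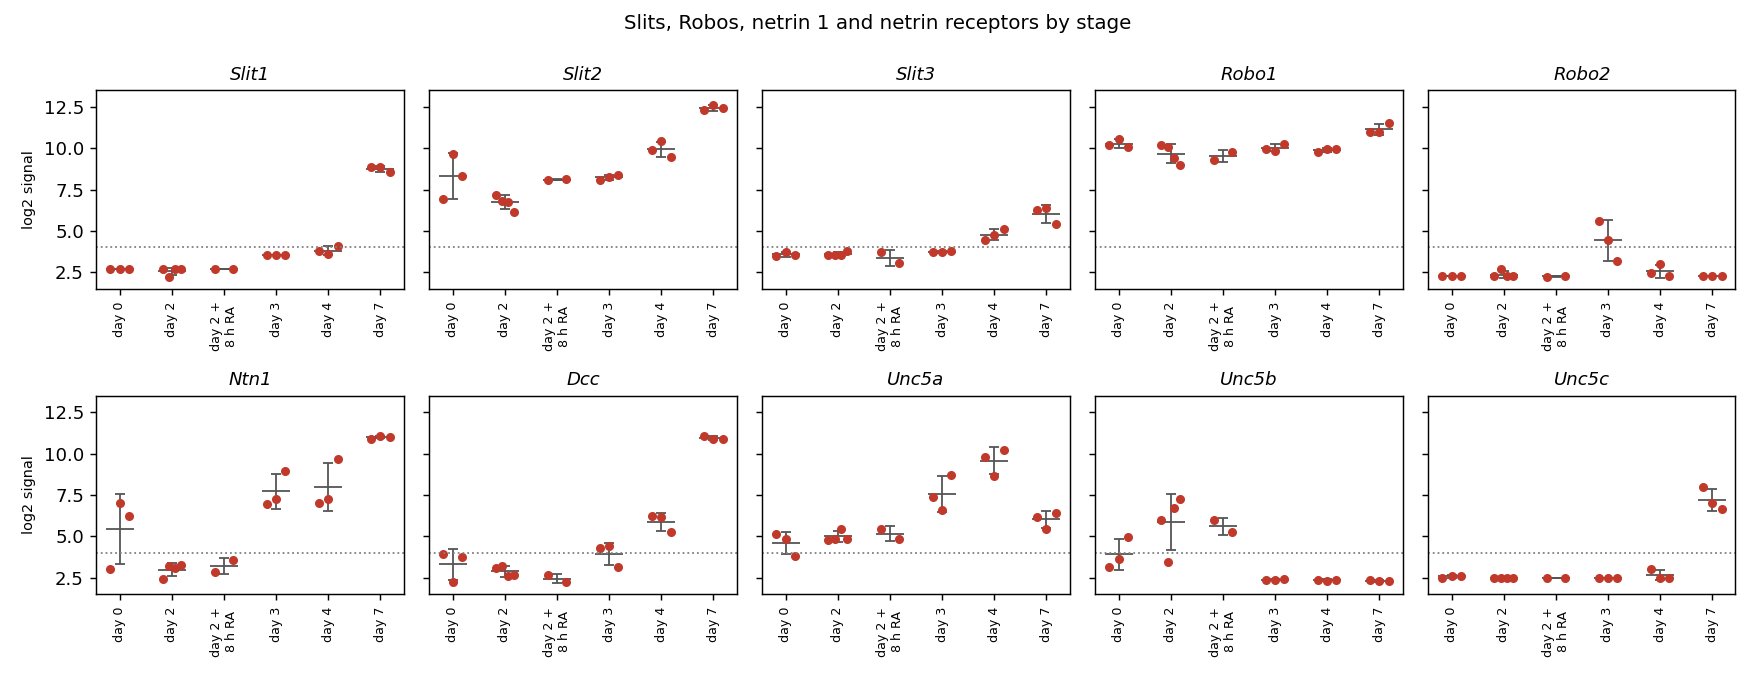
Log2 signal of 3 Slits, 2 Robos, Ntn1, Dcc and 3 Unc5 receptors by stage, with points for arrays, horizontal bars for group means, error bars for the SD and a dotted line at the background level of 4. Slit1, Dcc and Unc5c stand far above their day 4 arrays at day 7, Unc5a peaks at day 4, and Unc5b and Robo2 are near the lowest signal at day 7.

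The direct comparison set the day 7 arrays, which also held markers of glial, interneuron and floor plate cells, against the day 0 arrays. The 8 members with the largest log2 changes as measured were Dcc, Sema6d, Ephb1, Epha3, Slit1, Efnb3, Plxna2 and Epha5, and day 0 signals under background leave the order of their folds unknown. Ephb1 had log2 signals of 4.12, 3.65 and 4.12 at day 0 and was 74.9-fold higher at day 7 (log2 change 6.23 ± 0.35, adjusted p = 1.8e-08). Plxna2, at 4.07, 3.44 and 4.78 at day 0, was 59.9-fold higher (adjusted p = 1.7e-07), and Epha5, at 4.15, 2.28 and 3.66, was 55.4-fold higher (adjusted p = 6.7e-06). Efnb3, at 2.40, 3.73 and 3.41 at day 0, was at least 37.7-fold higher, and Sema6d, Slit1 and Epha3 were at least 37-fold, 27.2-fold and 25.5-fold higher. No day 0 array of these 7 genes reached the level of a day 7 array. The 5 members called lower at day 7 were Epha2 (at least 10.4-fold), Sema3e (21.2-fold), Ephb4 (at least 2.86-fold), Epha1 (at least 1.63-fold) and Sema4d (2.47-fold). With day 0 replicate 1 as the only day 0 array, Ephb4 and Sema5a were among the members whose call was lost on the reported probe set.

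By family, counts of members called from day 4 to day 7 are given beside the 10.9% of all genes that rose and the 8.17% that fell. Of 3 Slits and 2 Robos, 3 and 1 rose. Of 11 semaphorins and 10 plexins and neuropilins, 5 and 4 rose. Of 8 ephrins and 11 Eph receptors, 1 and 4 rose. Of the 6 netrin receptors 3 rose and 1 fell, and Ntn1 did not pass. Median log2 differences in this comparison were 2.49 for the Slits, 0.47 for the Robos, 1.72 for the semaphorins, 1.86 for the plexins and neuropilins, -0.01 for the ephrins, 0.54 for the Eph receptors and 1.81 for the netrin receptors.

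Other genes of the pathway were counted in 3 further lists. None of them had a gene called after RA. From day 4 to day 7, 13 of 27 other guidance ligands and receptors, 15 of 32 genes of the signal transduction under these receptors and 9 of 22 genes of other systems that guide motor axons rose, and none fell, where 10.9% of all genes rose and 8.17% fell (medians 1.65, 0.57 and 0.57). Ntng1, a membrane-anchored netrin, had log2 signals of 2.63, 2.82 and 3.08 at day 4 and 7.69, 8.02 and 9.25 at day 7, at least 19.9-fold higher (log2 change 5.47 ± 0.28, adjusted p = 1.6e-08). Dscam, an adhesion molecule and netrin receptor, Draxin, a secreted repellent that binds Dcc, and Sema7a, the ligand of Plxnc1, were at least 9.86-fold, 11.8-fold and 7.53-fold higher at day 7. No day 7 array of these 4 genes lay under 6.30 on the log2 scale and no day 4 array lay above 3.45.

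Among the signal transduction genes, Crmp1, a mediator of semaphorin 3A signals, went from log2 signals of 7.64, 8.16 and 8.31 at day 4 to 12.15, 12.33 and 11.99 at day 7, a 17.4-fold rise (log2 change 4.12 ± 0.25, adjusted p = 8.5e-08). Ablim3, an actin-binding protein, Pak3, a kinase under Rac and Cdc42, and Gap43, a growth cone protein, rose at least 8.43-fold, 20.6-fold and 6.53-fold. In the list of other systems, L1cam, an axonal adhesion molecule and partner of Nrp1, went from 5.65, 5.74 and 5.74 to 10.65, 10.49 and 10.79 on the log2 scale, a 30.6-fold rise (log2 change 4.94 ± 0.28, adjusted p = 4.7e-08). Ntrk2, the receptor of BDNF, Nell2, a secreted ligand of Robo3, and Gfra2, a co-receptor of Ret, rose 21.6-fold, 15.1-fold and at least 5.59-fold. The day 7 arrays of each of these genes lay above its day 4 arrays.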

How the data were processed

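Per the labels and the study's methods, RNA from HBG3 cells at 6 stages was amplified and hybridized to 18 Affymetrix mouse arrays, with 2 to 4 arrays per group. The authors normalized all arrays together by GCRMA, which adjusts background, equalizes distributions and summarizes the probes of a set, and deposited log2 values. Versions of their tools are not given in the sources used here. Groups and replicate numbers came from the sample labels.

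The deposited values were used as they stand. The 64 control probe sets were left out of 45101, and 34945 of the remaining 45037 carry 1 gene symbol, 932 several and 9160 none here. Limma 3.58.1 in R 4.3.3 (lmFit, eBayes) was fitted to all 18 arrays with 6 group means (12 residual and 0.515 prior degrees of freedom), and p-values were adjusted by Benjamini-Hochberg over all 45037 probe sets. Since the spread is pooled over stages, standard errors can be too small for genes near the lowest signals at some of them. The number of arrays limits the precision. Figures were drawn with matplotlib 3.10.9 under Python 3.11.15. Named are the called members, up to 8 per direction with array values, and up to 4 called genes of each further list. Members and lists were chosen with earlier results of these data known, so their counts are descriptions. Whether replicate numbers pair arrays was checked by the correlation of deviations from the group means. For replicates 1, 2 and 3 the correlations were 0.48, 0.35 and 0.48 (day 3 with day 2) and 0.64, 0.42 and 0.75 (day 4 with day 3), so these numbers were taken as pairing the arrays. They were mixed or negative for day 2 with day 0 and for RA. The main fit did not use this pairing, so its standard errors and p-values for days 3 and 4 leave it out. In the fit of all arrays, the replicate block also spans the stages without such correlations. Alternatives covered the samples fitted, the replicate block, moderation, dim probe sets, values under background, normalization, centring, probe sets per gene, probe set suffixes, thresholds and each array left out. Leaving out the array pairs of day 0 or day 2 and the block in fits of 2 groups were chosen after the data were seen.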

Additional observations from a re-analysis of the deposited data

Results flagged for a closer look

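Among the 4 day 2 arrays, 1 array stood apart from the other 3 in 9 of the 52 members by Dixon's test. Its chance rate of about 1 in 20 groups holds for normally distributed values. Tied or nearly tied values near the lowest signal are not such values, so the count cannot be set against that rate. In 8 of these genes all 4 log2 signals lay under background. They were Efna1 (2.68 in replicate 3, others 2.25 to 2.32), Sema3f (3.14 in replicate 4, others 3.09), Sema5a (3.04 in replicate 3, others 3.05), Plxna4 (2.35 in replicate 1, others 2.24 to 2.25), Slit1 (2.24 in replicate 2, others 2.67), Slit3 (3.78 in replicate 4, others 3.54), Robo2 (2.68 in replicate 2, others 2.25 to 2.26) and Unc5d (2.24 in replicate 4, others 2.31). The remaining gene, Unc5a, had a log2 signal of 5.47 in replicate 3 and 4.76 to 4.86 in the others. Without this array its rise from day 2 to day 3 was 2.72 on the log2 scale.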

How the results depend on the processing

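Of 86 calls of members over the 6 comparisons, 69 were kept on the reported probe set in every fit without 1 array, and no change was reversed under any alternative. Member counts without 1 array were 4 to 7 (day 2 against day 0), 0 to 2 (RA), 11 to 15 (day 3), 2 to 4 (day 4), 20 to 23 (day 7 against day 4) and 38 to 39 (day 7 against day 0). Fitting the 2 groups alone gave 0, 0, 9, 0 and 10 calls in the first 5 of these comparisons. In the fit of all arrays, the replicate block gave 5, 1, 14, 2, 22 and 37 calls, and on the reported probe sets it ended, besides those given above, the calls of Sema4c at day 2 (adjusted p = 0.011), of Sema5a (0.012), Nrp2 (0.034), Slit2 (0.019) and Robo1 (0.020) from day 4 to day 7, and of Efna3 (0.083), Sema3c (0.011) and Nrp2 (0.022) from day 0 to day 7. The RA count of 1 under the block is Efnb1 and not Epha4. With the block in fits of 2 groups, no gene at all was called by limma at days 2, 3 and 4, where 8, 18 and 10 members had an unadjusted p under 0.05 and a 2-fold change. The share of all genes past this unadjusted threshold was not counted. For RA the count was 0 with dim probe sets left out, values raised to background, the brightest probe set, averaged probe sets, a 4-fold threshold or day 2 replicates 1 and 2 left out, and 2 at an adjusted p under 0.05. Leaving out day 2 replicates 1 and 2, or 3 and 4, gave 10 calls each at day 3, and the latter gave 3 at day 2. The cause of these differences was not tested. Shares of all genes called in the fits of this section are not given here, so its counts describe the members alone. Signals under background limit what can be said of 10 members at day 7 and 19 at day 0, which lay there on all arrays.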
